A study of Mus musculus with 5 samples.

Results

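Autosomal stretches of more than 500 kb in which no replication initiation zone was called were examined in mouse embryonic stem cells of the line CGR8, grown with serum and leukaemia inhibitory factor and without feeder cells. Members were chosen by zone positions alone: a stretch is the interval between the end of one zone and the start of the next zone on the same autosome, and 597 of the 35119 autosomal intervals were longer than 500 kb. That is 1.70% of the intervals, a background that the length limit itself fixes. The zones come from 1 deposited list that combines 3 nascent strand preparations from separate cultures of unmodified cells. The series also has 2 controls, sonicated genomic DNA digested with lambda exonuclease (1 sample) and nascent strand fractions treated with RNase A before that digestion (1 sample). Neither control was analysed here. The list holds positions in build mm9 and neither reads nor values per replicate, so the depth and the spread between cultures are unknown. A test between conditions is not possible with such a list, and the spreads given are between chromosomes and not between cultures.

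DNA replication starts at origins, where MCM helicases loaded in G1 phase are activated in S phase and 2 forks leave in opposite directions. Origins that fire in the same neighbourhood form initiation zones. Between zones the DNA is copied by forks that arrive from the borders or by origins used too seldom to be called. Regions with few origins are known, as background, to be often poor in active genes and late to replicate, and some of the fragile sites that break under replication stress lie in such regions. Short nascent strands carry an RNA primer that protects them from lambda exonuclease, and this is how the zones were enriched.

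The stretches together spanned 515.7 Mb, which is 21.4% of the 2410 Mb enclosed by the outermost zones of the 19 autosomes. The median stretch was 714 kb long, with quartiles at 585 and 975 kb and the 10th and 90th percentiles at 534 and 1325 kb. The median over all autosomal intervals was 24.4 kb. Short stretches were the most frequent, with 175 of up to 600 kb and 162 of over 600 and up to 750 kb. Stretches of over 1 Mb numbered 134 and held 39.2% of the total stretch length. They occurred on each of the 19 autosomes. Only 44 stretches exceeded 1.5 Mb, on 15 autosomes, and 23 exceeded 2 Mb, on 10 autosomes.

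The numbers fell broadly with length up to 2 Mb and less evenly beyond. In bins of 0.1 Mb there were 2 stretches from 1.8 to 1.9 Mb and 2 from 1.9 to 2.0 Mb. There were then 4, 3, 6, 2 and 3 in the bins from 2.0 to 2.5 Mb, and 5 stretches were longer. These numbers are too small to tell a rise from scatter, and whether assembly gaps or sequence to which reads cannot be placed lie in the stretches was not tested.

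**Figure D1:**
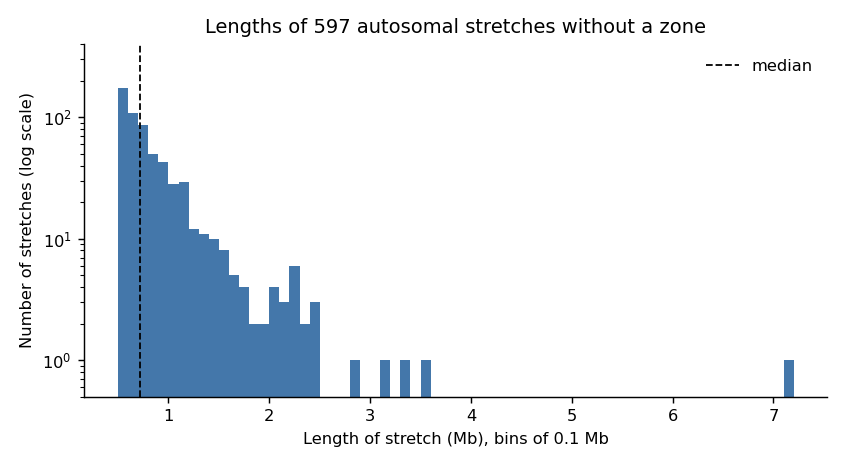
Number of autosomal stretches without a zone (log scale) by their length in Mb, in bins of 0.1 Mb, with the median as a dashed line. Most of the 597 stretches lie below 1 Mb, and 4 lie above 3 Mb, with the longest at 7.10 Mb.

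The length limit falls in a continuous run of lengths. Just inside it lay a stretch of 500400 bp on chromosome 15 from 48620201 to 49120600, one of 500600 bp on chromosome 13 from 66310601 to 66811200, and one of 500600 bp on chromosome 14 from 8077601 to 8578200. Just outside it lay 2 intervals of exactly 500000 bp, 1 on chromosome 9 (23806401 to 24306400) and 1 on chromosome 13 (41441401 to 41941400), and one of 499800 bp on chromosome 10 from 44256801 to 44756600. Plain subtraction of the deposited coordinates, with the last base of a zone not counted as part of it, would add these 2 and give 599 stretches. A further 290 intervals measured over 400 and up to 500 kb.

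The 10 longest stretches summed to 32.0 Mb, or 6.21% of the total stretch length, and 5 of them lay on chromosome 7. The longest ran for 7.10 Mb on chromosome 7 from 39302201 to 46404000, and was 2.03 times as long as the next. A zone of 800 bp stood at each of its ends, with 18 other zones in the 500 kb to its left and 4 in the 500 kb to its right. The second covered 3.50 Mb of chromosome 7 from 20620001 to 24124400. Its left flank of 500 kb held 30 other zones, the most found in any flank and a number reached by 3 flanks in all, and its right flank held 2. The third covered 3.34 Mb of chromosome 7 from 7253601 to 10595200, with 7 and 1 zones in its flanks. These 3 stretches therefore had the richer flank on the same side, that of lower coordinates.

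The fourth, of 3.12 Mb, lay on chromosome 2 from 174753401 to 177872800, near the end of that chromosome's zones. It had 10 and 14 zones in its flanks, and unlike the first 3 it was rich on both sides. The fifth, of 2.86 Mb, lay on chromosome 8 from 20033401 to 22889600, with 25 zones to its left and 8 to its right. The sixth lay on chromosome 1 from 47322801 to 49797800 (2475 kb) and the seventh on chromosome 4 from 111393201 to 113867800 (2474.6 kb). The remaining 3 covered 2.41 Mb of chromosome 7 from 59323801 to 61730400, 2.36 Mb of chromosome 2 from 95697401 to 98059400, and another 2.36 Mb of chromosome 7 from 92035801 to 94394400.

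Other autosomes had shorter maxima. The longest stretch measured 2.24 Mb on chromosome 17 from 91493001 to 93736800, 2.24 Mb on chromosome 5 from 94053601 to 96296400 and 2.23 Mb on chromosome 3 from 11245801 to 13472400. It measured 2.14 Mb on chromosome 13 from 61043201 to 63184000, 2.13 Mb on chromosome 12 from 114686401 to 116812400 and 1.98 Mb on chromosome 14 from 89402601 to 91384400. On chromosomes 10 and 6 it was 1.77 Mb (from 112463801 to 114236000) and 1.75 Mb (from 43724801 to 45476000). On chromosomes 9 and 16 it was 1.63 Mb each, from 4797001 to 6427200 and from 79568401 to 81196400. The shortest maxima were 1.41 Mb on chromosome 15 (from 14400401 to 15813400), 1.37 Mb on chromosome 19 (from 19079001 to 20450000), 1.23 Mb on chromosome 11 (from 27254001 to 28482200) and 1.20 Mb on chromosome 18 (from 71402201 to 72599600). In 10 of these 14 stretches neither flank of 500 kb held more zones than the autosomal mean of 7.29. The same held for 451 of the 588 stretches with both flanks measured, so the 14 did not stand out in this. The one on chromosome 15 had none within 500 kb beyond either border, because its neighbouring intervals were themselves stretches, of 766 and 588 kb. No gene is named for any stretch, since an annotation of mm9 was not used here.

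Chromosomes differed in how many stretches they carried and in how long those were. An autosome carried 24.5 ± 5.47 stretches per 100 Mb of zone span (SD, n = 19 autosomes), from 13.5 on chromosome 11 to 32.9 on chromosome 15. The median length per autosome was 710 ± 42.8 kb (SD, n = 19), from 647 kb on chromosome 12 to 802 kb on chromosome 14. The rule keeps each median above 500 kb, so this spread cannot be set against that of the number. The number ran from 9 on chromosome 19 to 54 on chromosome 1. Across the 19 autosomes, number and span gave Pearson's r of 0.82 and Spearman's rho of 0.78, a description in which longer chromosomes have more room for stretches.

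The share of the zone span taken up was highest on chromosome 7 (27.7%, 33 stretches) and chromosome 14 (27.3%, 38 stretches). It was lowest on chromosome 11 (10.4%, 16 stretches), chromosome 19 (11.96%, 9 stretches) and chromosome 9 (13.3%, 20 stretches). Chromosome 7 owed its rank to a single stretch, which made up 17.1% of its stretch length: without each chromosome's longest stretch, chromosome 14 came first with 25.7% and chromosome 7 had 23.0%. Chromosome 11 remained lowest at 9.38%. Chromosomes 17 and 18 lay between these, with 20.2% and 15.6% of their spans.

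A chromosome with many zones was not always one with few stretches. Chromosome 4 carried 22.6 zones per Mb outside its stretches, yet 25.9% of its span lay in 45 stretches. Chromosome 7 had 22.4 zones per Mb outside its stretches. Chromosome 11, with 25.02 zones per Mb outside, had the lowest share. Across the 19 autosomes the share in stretches and the zone density outside them gave Pearson's r of -0.24 and Spearman's rho of -0.08, although both depend on the same zones.

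**Figure D2:**
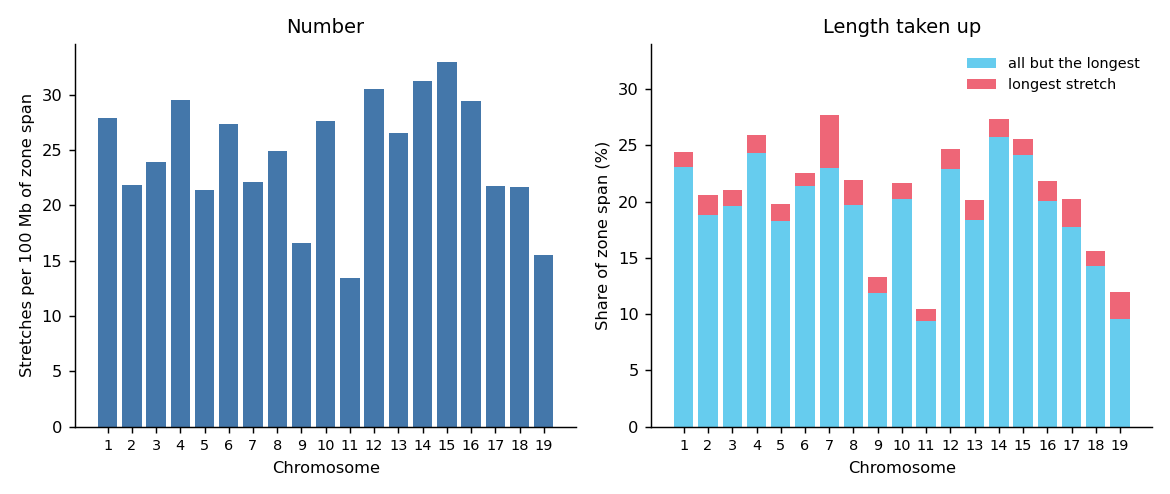
Left, stretches per 100 Mb of zone span on each autosome; right, share of the zone span (%) they take up, with the longest stretch of each chromosome stacked on the others. Chromosome 7 reaches 27.7% with its longest stretch and 23.0% without it, and chromosomes 9, 11 and 19 are low in both panels.

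Gene content was compared through the number of protein-coding genes that a RefSeq table assigns to each chromosome. Gene-rich autosomes carried fewer stretches per 100 Mb, with Pearson's r of -0.69 and Spearman's rho of -0.57 over 19 autosomes. Chromosome 11, with 13.5 genes per Mb, had 13.5 stretches per 100 Mb, and chromosome 12, with 5.75 genes per Mb, had 30.5. Other chromosomes at the extremes of gene density did not differ in this way. Chromosome 7, with 13.6 genes per Mb, had 22.1 stretches per 100 Mb, and chromosome 18, with 5.81, had 21.7. For the share of the span in stretches the relation was looser, with r of -0.38 and rho of -0.26. It rested strongly on chromosomes 7 and 11: without chromosome 7, which had both the most genes per Mb (13.6) and the highest share, r was -0.65, and without chromosome 11, with 13.5 genes per Mb and the lowest share, r was -0.18. With both left out, whose gene density was most extreme, r was -0.50 over 17. Both measures use the same span as denominator, and where the genes lie relative to the stretches was not analysed here.

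Stretches were scattered over the whole length of the autosomes and were scarcer toward the end with the highest coordinates. Mouse autosomes are acrocentric, and that end is the one opposite the centromere. With each zone span divided into 10 equal parts, stretches took up 25.2% ± 15.9 (SD, n = 19 autosomes) of the first part and 27.0% ± 13.1 of the third. They took up 12.8% ± 16.3 of the ninth part and 10.6% ± 13.2 of the last. The last part held no part of a stretch on 7 autosomes, and the first held none on 3. The spread between chromosomes was as large as the difference between parts.

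Counted over a fixed length, the first 10 Mb lay in stretches for 26.4% ± 17.9 and the last 10 Mb for 10.7% ± 13.6 (SD, n = 19 autosomes). The first 10 Mb had the higher share on 14 autosomes, the last on 4, and chromosome 16 had no stretch in either. The highest values were 63.5% at the start of chromosome 14 and 47.1% at the end of chromosome 17. Chromosome 17 therefore went against the majority, as did chromosomes 2, 10 and 18. On chromosome 11 the last 47.7 Mb before the final zone held no stretch, and on chromosome 5 the last 42.6 Mb held none. On chromosome 16 the first stretch began 22.4 Mb after the first zone.

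**Figure D3:**
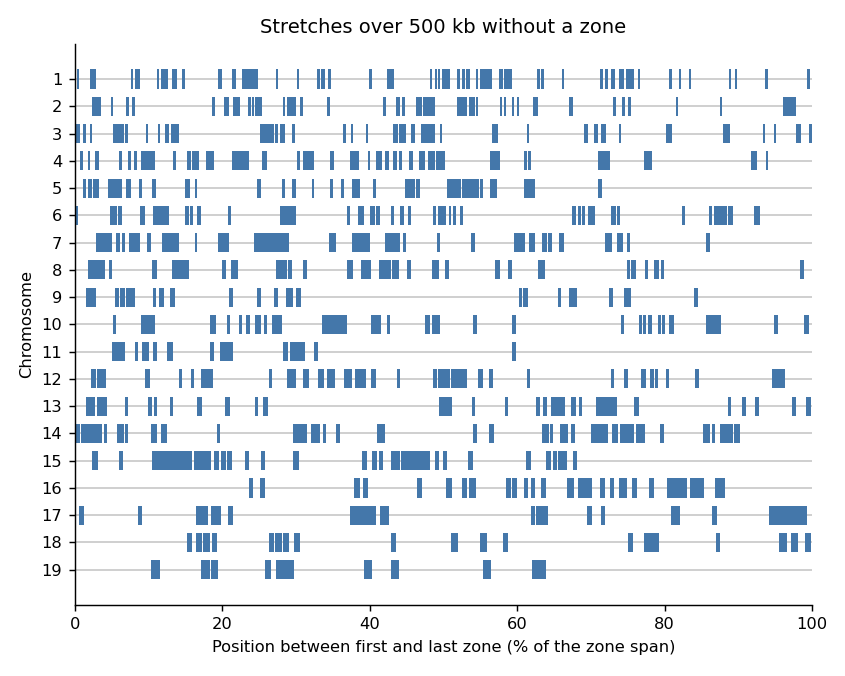
Stretches over 500 kb (blue bars) on the 19 autosomes, each drawn from its first to its last zone as 0 to 100% of the zone span. Chromosomes 5, 11, 15 and 19 have long parts without a bar on the right, and chromosomes 16 and 18 on the left.

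Neighbouring stretches often lay close together. Between 578 pairs of neighbouring stretches on the same chromosome, the segment that held the zones had a median length of 952 kb and a median of 8 zones, with quartiles at 187 kb and 3.71 Mb and at 2 and 49.5 zones. In 95 segments (16.4%) there was a single zone, in 64 there were 2 and in 48 there were 3. At the other extreme, 109 segments were longer than 5 Mb. The longest, on chromosome 9 from 39997601 to 75646400, held 764 zones over 35.6 Mb without an interval of over 500 kb.

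Intervals near a stretch were long as well. The interval next to a stretch had a median of 152 kb (quartiles 62.8 and 357 kb), against 24.4 kb over all autosomal intervals. Of these next intervals 15.9% were themselves over 500 kb, against 1.70% of all autosomal intervals. Adjacent stretches count here from both sides. At 5 intervals away the median was 83.0 kb and 8.96% were over 500 kb. At 20 intervals away the median was still 49.2 kb and 4.30% were over 500 kb. Next to intervals of 250 to 500 kb the median was 110 kb and 10.7% were over 500 kb, so the lengthening was not confined to stretches beyond the limit.

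With stretches at most 200 kb apart taken as a group, 249 of the 597 stretches (41.7%) fell into 98 groups, and 348 stood alone. Of the groups, 65 had 2 stretches, 21 had 3, 8 had 4 and 4 had 6. Groups lay on all 19 autosomes, with most on chromosome 4 (10 groups, 25 stretches) and 1 each on chromosomes 9 and 19. A group had a median length of 1.98 Mb, of which stretches made up a median of 99.8%. The limits of 200 kb between stretches and over 500 kb for a stretch keep this percentage high in any group. The stretches inside groups had a median of 742 kb, and those alone 697 kb. Groups ranged from 1.03 to 7.32 Mb, so the largest was longer than any single stretch.

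The largest group lay on chromosome 5 from 78569001 to 85890800. Its 6 stretches left only 10 zones over 7.32 Mb, with widths of 600 to 3400 bp and a summed width of 13.6 kb, and its longest stretch measured 1.86 Mb. The second lay on chromosome 15 from 13634201 to 19012200, where 6 stretches over 5.38 Mb were separated by 5 single zones of 600 to 1200 bp. The third covered 5.37 Mb of chromosome 12 from 60426401 to 65792200, with 6 stretches and 7 zones between them. The fourth group of 6 was again on chromosome 15, from 46125201 to 51368800, with 8 zones of 600 to 1400 bp over 5.24 Mb, and contained the shortest of all stretches. None of these groups held one of the 10 longest stretches.

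The zones that stood between 2 stretches were narrow. The 95 such zones had a median width of 1000 bp and ranged from 400 bp to 6.40 kb, and 30 of them were under 1 kb wide. The zone between the longest neighbouring stretches lay on chromosome 1 from 49797801 to 49798800, was 1000 bp wide and separated stretches of 2.475 and 1.18 Mb. The next, of 800 bp, lay on chromosome 7 from 61730401 to 61731200 between stretches of 2.41 and 1.16 Mb. The third, also of 800 bp, lay on chromosome 3 from 78053601 to 78054400 between stretches of 2.15 and 0.98 Mb. If such a narrow zone had not been called, each of these places would have shown a stretch of over 3 Mb.

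The zones at the borders of all stretches were then compared with the remaining autosomal zones. The 597 stretches had 1099 border zones, 3.13% of the autosomal zones. The border zones were 1200 bp wide at the median and the other 34039 were 2600 bp wide. The quartiles were 800 and 1800 bp for border zones, and 1600 and 4800 bp for the others. On each of the 19 autosomes the median of the border zones was below that of the others, by 800 bp on chromosome 13 at the least and by 2400 bp on chromosome 11 at the most. Widths did not enter the choice of the stretches, but zones in sparse regions are narrow in this list in general, and the difference was not tested because the list has no replicates.

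Narrow zones were frequent at borders and wide zones were almost missing. Of the border zones, 26.8% were under 1 kb wide, against 7.07% of the others. Zones of 10 kb or more numbered 2 among the 1099 border zones (0.18%) and 2603 among the others (7.65%). Zones whose longer neighbouring interval was 250 to 500 kb were close to the border zones, with 20.6% under 1 kb and 0.16% of 10 kb or more. The widest border zone measured 28.0 kb on chromosome 10 from 78992201 to 79020200, at the right end of a stretch of 684 kb with 19 and 30 zones in its flanks. The second measured 10.8 kb on chromosome 2 from 177872801 to 177883600, at the right end of the fourth longest stretch. The third measured 7.40 kb on chromosome 5 from 26332801 to 26340200, at the right end of a stretch of 997 kb.

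The medians at the ends of a stretch did not differ. Left and right border zones each had a median of 1200 bp. The right zone was the wider one in 276 stretches, the left in 252, and 69 had equal widths. Borders of the longer and of the shorter stretches, divided at the median length, also had the same median of 1200 bp. Over a wider range of intervals there was a gradient. Zones whose longer neighbouring interval was up to 10 kb had a median of 5000 bp. The median was 2800 bp for 25 to 50 kb, 1800 bp for 100 to 250 kb and 1400 bp for 250 to 500 kb, and it was 1200 bp in each class above 500 kb.

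Zones stayed sparse far beyond the borders. In the first 50 kb beyond a border there were 5.12 other zones per Mb, against 14.6 over the whole autosomal span. The density was 8.30 per Mb at 450 to 500 kb, 8.23 at 950 to 1000 kb and 9.70 at 1950 to 2000 kb, so at 2 Mb it had not reached the autosomal mean. Beyond intervals of 250 to 500 kb the density was higher at each distance, with 7.49 per Mb in the first 50 kb and 11.97 per Mb at 1950 to 2000 kb. Widths rose with distance too: the median was 1400 bp in the first 50 kb and 2000 bp at 1950 to 2000 kb, against 2600 bp over all autosomal zones. Counted in order from the border, the second zone had a median of 1200 bp, the fifth 1400 bp, zone 10 had 1800 bp and zone 50 had 2000 bp.

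**Figure D4:**
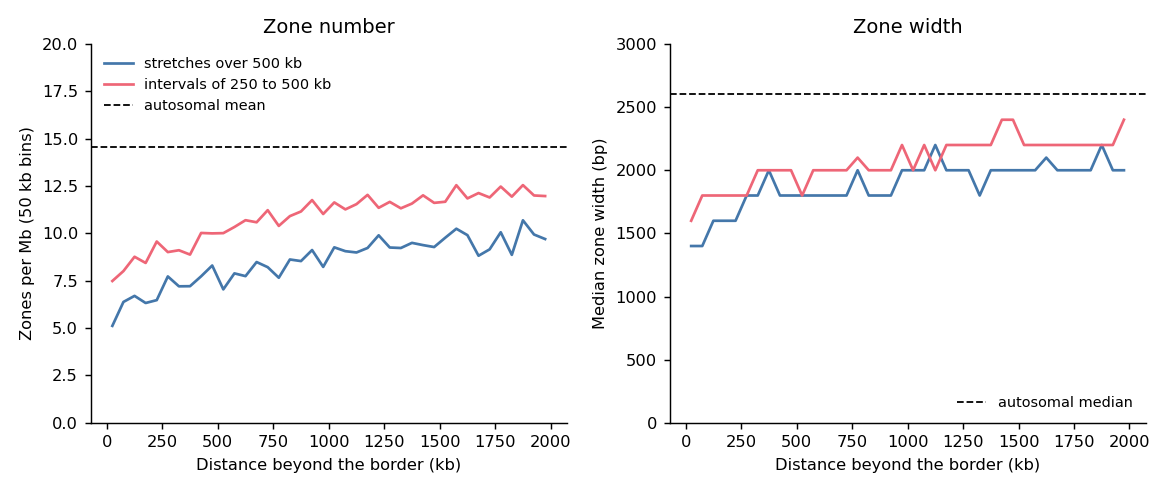
Zones per Mb (left) and median zone width in bp (right) in 50 kb bins by distance in kb beyond the borders of stretches over 500 kb (blue) and of intervals of 250 to 500 kb (red), with the border zone itself left out and the autosomal value as a dashed line. The blue line starts at 5.12 zones per Mb and is at 9.70 per Mb 2 Mb away, below the autosomal 14.6.

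The flanks of stretches mostly held few zones. The 1185 flanks of 500 kb that lay wholly within the zone span held a median of 2 other zones (quartiles 1 and 5), against an autosomal mean of 7.29 per 500 kb, and 190 flanks (16.03%) held none. These 190 are the flanks whose next interval was itself a stretch, on either side of the 95 zones between 2 stretches, and no separate observation. Of the 588 stretches with both flanks measured, 282 had 3 or fewer zones in each. In 451 neither flank was above the autosomal mean, in 124 a single flank was, and in 13 both were. That mean counts every zone, while a flank leaves out its border zone. The share of all autosomal windows of 500 kb above the mean was not computed, so these counts have no background. The left and right flanks gave a rho of 0.18 over the 588 stretches, as a description.

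The stretches of over 2 Mb more often had a rich flank. Their 46 flanks held a median of 4 other zones, and 32.6% were above the autosomal mean, against 12.7% of all 1185 flanks. The share was 16.1% of the 347 flanks of stretches of up to 600 kb and 9.03% for 600 to 750 kb. It was 10% for 750 to 1000 kb, 13.4% for 1 to 1.5 Mb and 4.76% of the 42 flanks for 1.5 to 2 Mb. The richer flank of a stretch of over 2 Mb held a median of 8 zones and the poorer flank 1. For stretches of 1.5 to 2 Mb both medians were 1. Without chromosome 7, which carried 6 of these 23 stretches, the richer flank of the other 17 held a median of 7 zones and 32.4% of their flanks were above the mean. The classes hold few stretches and the difference was not tested.

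The most uneven flanks were all on chromosome 7. Besides the second longest stretch, with 30 and 2 zones, these were a stretch of 555 kb from 27303201 to 27858400, with 2 zones to its left and 30 to its right, and, tied with each other, a stretch of 2.27 Mb from 31992201 to 34264200, with 26 and 4, and one of 893 kb from 17648801 to 18541400, with 24 and 2. The border zones facing the rich side were 1600, 2400, 1800 and 3200 bp wide. Over all borders the median width was 1000 bp with no other zone in the flank and 1200 bp with 1 to 3. The borders with none are the 95 zones between 2 stretches, each counted from both sides, so their median repeats the one given above. With 16 or more the median width was 1600 bp, and 1 of those 29 borders was 10 kb or wider. Border width and number of flank zones gave a rho of 0.21, as a description in which those 95 zones also count from both sides. All 4 stretches lay within 16.6 Mb of that chromosome.

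Border zones were finally compared with other autosomal zones that had a similar number of zones around them. Of the border zones, 97 had no other zone within 500 kb of their midpoint. By the rule such a zone is nearly always a border, and none of the other autosomal zones was as isolated. With 1 to 3 other zones within 500 kb on either side, both kinds had a median width of 1200 bp (610 border zones and 544 others). With 4 to 7, border zones had a median of 1200 bp and the others 1400 bp, and with 8 to 11 the medians were 1400 and 1600 bp. With 12 to 15 they were 1800 and 2000 bp. These differences equal the 200 bp grid of the list. With 1 to 3 nearby zones, border zones had the lower median on 8 autosomes and the higher on 5. With 4 to 7 nearby zones, border zones had the lower median on 9 autosomes and the higher on 5. With 8 to 11 they had the lower on 13 and the higher on 4, and with 12 to 15 the lower on 8 and the higher on 5. With 16 to 30 nearby zones, the 28 border zones were 1400 bp wide at the median, with quartiles at 1000 and 2700 bp. The 12798 others in that class were 2600 bp wide, with quartiles at 1600 and 4200 bp. In that class border zones had the lower median on 10 of the 12 autosomes with both kinds, though they also had fewer zones nearby, with a median of 18 against 22. Zones with more than 30 others nearby were not in these classes and were not compared. In the classes of up to 15 nearby zones the medians thus differed by at most 200 bp. The numbers nearby were not quite alike, since border zones had the lower median number in each class, for example 2 against 3 with 1 to 3. Whether the number of nearby zones accounts for the narrow border zones was not tested.

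**Figure D5:**
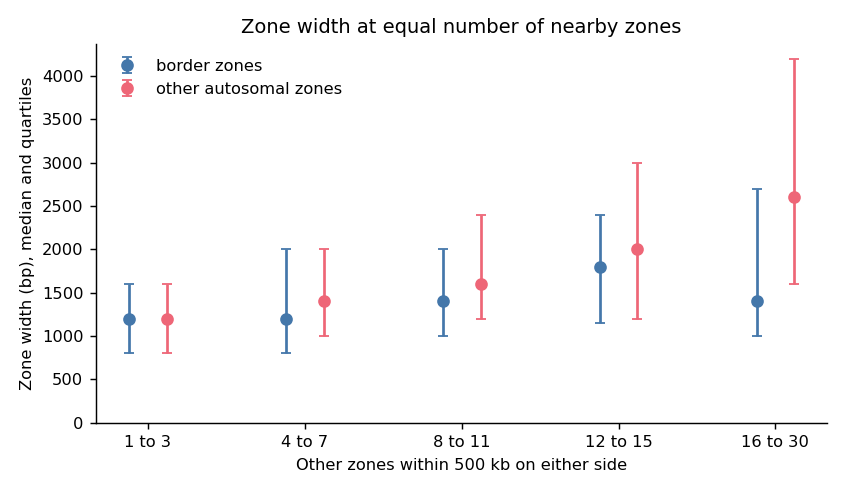
Width in bp (point, median; bar, quartiles) of border zones (blue) and other autosomal zones (red) by the number of other zones within 500 kb on either side. The medians are 1200 bp for both kinds at 1 to 3 nearby zones and 1400 against 2600 bp at 16 to 30. Zones with more than 30 nearby zones are not shown.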

How the data were processed

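The 3 nascent strand samples enter as 1 pooled list of zones, deposited by the authors in combined form according to the series' design text. Its values are positions in bp, another unit than a count or signal, with chromosome, start and end and neither score nor reads. CASAVA 1.8, SICER and build mm9 are named in the submitters' processing notes, and the settings, as well as the use of the controls, are not given in the sources used here. A caller's threshold decides whether a weak zone divides a stretch.

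File starts are multiples of 200 bp and ends are the last base, so positions are printed counting from 1. The zone span runs from a chromosome's first to its last zone, and sequence outside it was not used. Zones were assigned to flanks and bins by their midpoint, the border zone left out. Genes per chromosome came from a RefSeq table of GRCm38.p6, of which only the chromosome and the gene type were used. No sequence is printed, since a genome of mm9 was not used here.

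Regions named are the 10 longest stretches, the longest per autosome, the 3 nearest to the length limit on each side, the groups with most stretches, the 3 widest border zones, the 3 most uneven flanks with ties and the 3 lone zones between the longest neighbours. The members, rules and comparisons were chosen with earlier results of these data known. The comparisons of flanks by stretch length and of widths at a similar number of nearby zones were added after values had been seen. The calculation that finds stretches was checked only for recovering stretches planted in simulated lists. That check did not cover how the end coordinates of the deposited list are read. Python 3.11.15 with numpy 2.4.6, pandas 2.3.3, scipy 1.17.1 and matplotlib 3.10.9 was used.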

Additional observations from a re-analysis of the deposited data

How the results depend on the processing

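The 5 results recomputed were number, share of span, groups, width difference and the correlation of the share with gene density. None of the 34 alternative values changed direction, but only the width difference and the correlation could have done so. Counts were held to be alike within 1.5 times, shares and widths within 1 SD over the autosomes, and correlations within the range from leaving out each autosome (-0.65 without chromosome 7 to -0.18 without chromosome 11). Of the 34 values, 25 stayed within these limits. Some of them had to, because r without chromosome 7 is itself a limit and joining close zones cannot change a stretch. With a limit of 400 kb there were 887 stretches, the share was 26.8% of the span and the groups numbered 176. With a limit of 750 kb there were 260 stretches, 12.9% of the span, 35 groups and r was -0.12. Leaving out zones under 1 kb gave 27.7% of the span. Leaving out the 2264 zones with no other within 100 kb, of which 657 were border zones, gave 40.3% of the span in 723 stretches and 147 groups. The 887 stretches and the 147 groups were held to be alike but lay at or close to the limit of 1.5 times. Against zones whose longer neighbouring interval was 250 to 500 kb, border zones differed in median width by -200 bp in place of -1400 bp. The values for flanks of stretches over 2 Mb without chromosome 7 were chosen after seeing the data. Joining zones under 2 kb apart left the number of stretches at 597, as it had to, because only intervals under 2 kb are filled. No paired analysis was possible because replicates are merged in the deposited file, and for the same cause no replicate could be left out. Depth is unknown, so zones missed by the caller inside a stretch cannot be bounded.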
